A study of Mus musculus with 8 samples.

Results

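The alveolar type 1 genes are 8 genes chosen by symbol: Ager, Hopx, Pdpn, Aqp5, Cav1, Clic5, Akap5 and Emp2. Their members are all peaks that the deposited H3K4me3 table assigns to one of these symbols, which gave 24 of the 35486 listed peaks and 7 of the 20871 genes with a listed peak. Ager had no listed peak. Hopx had 2 peaks, Pdpn 5, Aqp5 1, Cav1 2, Clic5 10, Akap5 2 and Emp2 2, and each of these peaks was 400 bp long, so that levels could be compared between genes without a length correction.

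Alveolar type 1 cells are the thin, flat cells through which gas passes between air and blood, and they line most of the surface of the alveolus. Alveolar type 2 cells make surfactant and can give rise to type 1 cells, passing through a transitional state. H3K4me3, trimethylation of lysine 4 on histone H3, is a mark of nucleosomes around active and poised start sites, so a peak beside a gene is a measure of chromatin state and not of RNA. The members act at the cell membrane or in its support, apart from Hopx, a homeodomain protein that does not bind DNA and acts with other transcription regulators. Several of them are not confined to type 1 cells: Cav1 is also strong in endothelium, and Pdpn marks lymphatic endothelium.

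CUT&Tag was used to profile the mark in tumor cells from mouse lungs, sorted as CD45-CD31-EpCAM+. KL mice carried KrasLSL-G12D/+ and Lkb1fl/fl, and KLG4m/m mice carried both of these and the Gpx4m/m allele, from which a tamoxifen-dependent Dre recombinase removes exons 5 to 7 of Gpx4 after Cre has acted. Both groups, controls included, received intranasal Ad-Cre at 8 to 10 weeks of age and then tamoxifen, and cells were taken 10 weeks after Ad-Cre. Cre came from an adenovirus and was not limited to one lung cell type by the allele, so the cell in which a tumor began is not fixed by the design. There were 2 libraries a group, KL replicates 1 and 2 and KLG4m/m replicates 3 and 4, each labelled with its own number. The study's legend gives 2 mice a group, which matches the 4 libraries, while its protocol speaks of 3 mice in total. The edgeR p-values do not rest on the spread between these libraries at a single peak or gene alone. Its variance is drawn toward that of all others, with prior degrees of freedom of 24.5 for peaks and 127 for genes.

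Between 3244495 and 3463731 reads a library fell in listed peaks. Levels are given as CPM, reads per 1000000 reads in listed peaks after TMM scaling, and fold changes are KLG4m/m over KL on the log2 scale from edgeR's quasi-likelihood test, with p-values adjusted by the Benjamini-Hochberg method over all listed peaks or all genes and a threshold of 0.05. An exact permutation test of one value in 2 against 2 libraries cannot go below 0.333. The Gpx4 start-site peak held 242 and 236 reads in KL and 304 and 301 in KLG4m/m (log2 fold change 0.40, edgeR adjusted p = 0.00854). That peak lies outside the deleted exons and does not check the deletion. Among genes that define sorted or excluded cells, the summed H3K4me3 of 7 epithelial markers was 382 to 383 CPM in KL and 327 to 331 CPM in KLG4m/m, while macrophage and lymphocyte markers also carried listed peaks in cells sorted as CD45-.

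H3K4me3 was lower in KLG4m/m at 5 of the 24 alveolar type 1 peaks and higher at 1, and the other 18 did not pass the threshold. None of the 6 calls held with DESeq2, which gave an adjusted p for 3 of them, or without either KLG4m/m library, where no peak of the whole table was called. The lower peaks belonged to Emp2, Pdpn, Akap5, Clic5 and Aqp5, with fold changes from 1.66-fold at Aqp5 to 2.27-fold at the intronic peak of Emp2. The higher peak lay 13.0 kb before a start site of Clic5 and differed by 2.03-fold. Among all listed peaks 5.52% were called lower and 3.10% higher, 8.62% in either direction. The members were 20.8% lower and 4.17% higher, but peaks of 1 gene are not independent of each other, and Clic5 alone held 10. The members were also chosen with earlier results of these data known, so these shares are a description and the list was not tested. At an unadjusted edgeR p under 0.05 there were 10 member peaks, beside 24.6% of all peaks.

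The groups did not overlap, with both KLG4m/m libraries below both KL libraries, at 13 of the 24 peaks, where 26.6% of all peaks showed this. They did not overlap in the other direction at 3, against 27.5% of all peaks. The median log2 fold change of the member peaks was -0.36, beside 0.01 for all listed peaks. Of the 24 estimates, 15 were below 0, where 49.0% of all listed peaks were.

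The called peaks were counted by their distance from a start site. Of the 9 member peaks within 1 kb of an annotated start site, 1 was lower and none higher, near the 8.43% of all such peaks that were lower. Of the 15 member peaks beyond 1 kb, 4 were lower and 1 higher, against 2.82% and 3.29% of all peaks at that distance. The peaks beyond 1 kb had a mean level between 3.68 and 15.3 CPM, with 7 to 61 reads in a library, and those within 1 kb reached 59.0 CPM.

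**Figure D1:**
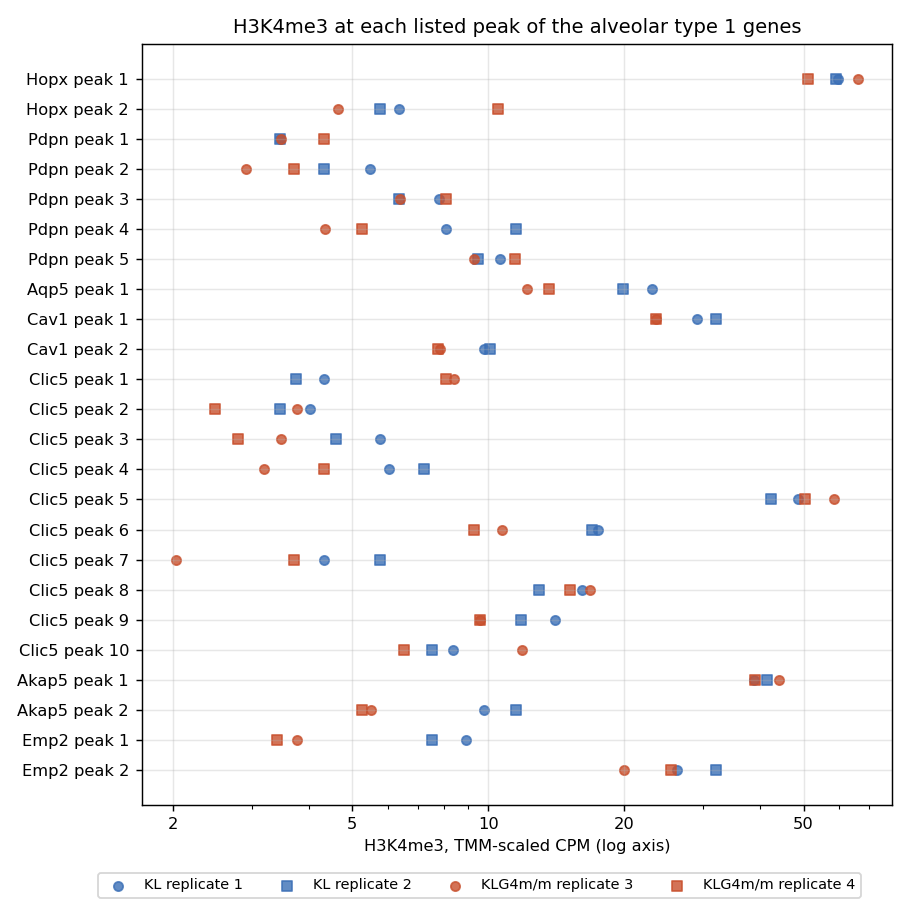
H3K4me3 in each library at the 24 listed peaks of the alveolar type 1 genes, with TMM-scaled CPM on a log axis and 1 row a peak in order of position within each gene. Blue symbols are KL and red symbols KLG4m/m libraries. The KLG4m/m symbols lie apart to the left at 13 peaks and apart to the right at 3.

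Whether peaks of 1 gene changed differently from each other was tested with edgeR's diffSpliceDGE, which sets the change at a peak against that of its whole gene. It covered 23 member peaks in 6 genes, since Aqp5 has no second peak. No member peak passed the threshold over the 22232 peaks tested, of which 1.29% did. The lowest edgeR adjusted p was 0.0666, for Clic5 peak 6. A difference between start-site and inner peaks within a member was therefore not shown, and the contrasts described for single genes are estimates.

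Summed over their peaks, 2 of the 7 genes were lower, Aqp5 and Emp2, and none was higher. Of all genes 9.63% were lower and 5.38% higher. Neither member call held with DESeq2, where the adjusted p was 0.245 for Aqp5 and 0.304 for Emp2. For 4 of the 7 genes both KLG4m/m libraries lay below both KL libraries (28.7% of all genes), and for none above (27.9%). The median log2 fold change of the 7 genes was -0.26, against 0.00 over all genes. In bulk sorted cells, fewer cells with the mark at a gene and less of the mark in each cell cannot be told apart.

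The receptor gene comes first. Ager encodes the receptor for advanced glycation end products, which type 1 cells carry on their basal membrane and which is a widely used marker of that cell type. No listed peak carries its symbol, so it has no value in any library and no level or change can be given. The lack of a listed peak is not a measure of a library at 0. By order in the RefSeq annotation the nearest genes are Pbx2 on one side and Rnf5 and then Agpat1 on the other. Pbx2 had 2 listed peaks, Rnf5 none and Agpat1 1, and 10.7 kb without a listed peak separated the last Pbx2 peak from that of Agpat1. Agpat1, an acyltransferase of phospholipid synthesis, held 285 and 289 reads in KL and 356 and 329 in KLG4m/m, which do not overlap (log2 fold change 0.31, SE 0.0878, edgeR adjusted p = 0.0258, higher). The Pbx2 peaks did not pass the threshold, at log2 fold changes of 0.30 and -0.16.

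The bases before the start site are shown for Ager, which has no peak, and for Aqp5, Hopx and Pdpn, because their content of CG steps spans nearly the whole range of promoters. H3K4me3 tends to sit at promoters rich in CG. The sequences are RefSeq windows of 250 bases that end just before the start, given 5′ to 3′ on the gene's strand with CG steps in capitals. Their positions are those of GRCm38.p6, which is not the build of the peak table, so that no chromosome position is compared between the sets. Where a peak is set beside a window, both are placed only by distance from the annotated start.
Ager, chr17:34597600-34597849, plus strand: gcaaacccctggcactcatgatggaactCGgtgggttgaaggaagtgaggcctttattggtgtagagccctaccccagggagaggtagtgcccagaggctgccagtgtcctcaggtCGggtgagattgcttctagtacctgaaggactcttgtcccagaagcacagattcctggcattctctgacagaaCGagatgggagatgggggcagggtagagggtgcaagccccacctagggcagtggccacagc
Aqp5, chr15:99590778-99591027, plus strand: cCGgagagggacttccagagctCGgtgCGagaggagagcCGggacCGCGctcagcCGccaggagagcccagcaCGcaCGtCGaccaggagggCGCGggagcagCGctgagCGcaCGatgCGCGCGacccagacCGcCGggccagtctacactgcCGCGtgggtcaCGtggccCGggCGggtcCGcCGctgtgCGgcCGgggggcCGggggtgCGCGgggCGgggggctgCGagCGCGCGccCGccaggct
Hopx, short start, chr5:77095268-77095517, minus strand: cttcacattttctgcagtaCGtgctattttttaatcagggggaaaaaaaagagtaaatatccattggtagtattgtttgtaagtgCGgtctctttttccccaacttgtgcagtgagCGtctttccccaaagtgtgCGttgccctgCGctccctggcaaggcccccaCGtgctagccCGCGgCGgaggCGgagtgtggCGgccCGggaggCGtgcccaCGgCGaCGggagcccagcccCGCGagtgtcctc
Hopx, long start, chr5:77115124-77115373, minus strand: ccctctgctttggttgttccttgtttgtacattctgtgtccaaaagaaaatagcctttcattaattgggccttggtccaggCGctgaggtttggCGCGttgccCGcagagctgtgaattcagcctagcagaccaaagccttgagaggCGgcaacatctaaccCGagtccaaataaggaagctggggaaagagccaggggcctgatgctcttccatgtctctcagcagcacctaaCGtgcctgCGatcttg
Pdpn, chr4:143299565-143299814, minus strand: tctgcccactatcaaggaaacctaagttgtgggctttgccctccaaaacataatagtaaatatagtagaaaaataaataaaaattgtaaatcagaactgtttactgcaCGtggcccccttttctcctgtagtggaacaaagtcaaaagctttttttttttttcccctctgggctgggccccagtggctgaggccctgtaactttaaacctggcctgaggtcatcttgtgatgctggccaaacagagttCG

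The Ager window holds 3 CG steps, at percentile 29 of 32851 windows, whose median is 6 and quartiles are 2 and 16. Pdpn has 2 (percentile 18.8), and Aqp5 has 38 (percentile 98.1). The 2 Hopx windows differ, with 18 steps at the start of NM_001159900.1, here the short start, and 8 at that of NM_175606.3, here the long start. Of the members not printed, the windows held 20 CG steps at Akap5, 13 at Clic5, 11 at Emp2, and 10 and 12 at the 2 starts of Cav1. The letters GGAATG, searched on both strands as the core of a TEAD site, occur in none of the 10 member windows and in 12.6% of all windows.

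Hopx had the strongest single peak of the members, while summed over peaks Clic5 was higher, at 123 and 120.2 CPM in KL and KLG4m/m against 65.4 and 66.1 CPM. Its peak over the start of NM_001159900.1 (chromosome 5, 77242741 to 77243141), the start whose window has 18 CG steps, held 207 and 205 reads in KL and 228 and 165 in KLG4m/m. The KL values lay between the KLG4m/m values. The level was 59.3 ± 0.354 CPM (SD, n = 2) in KL and 58.6 ± 10.6 CPM in KLG4m/m, a log2 fold change of -0.01 with a 95% interval from -0.25 to 0.23 (edgeR adjusted p = 0.964). The weaker peak at the start of NM_175606.3 held 22 and 20 reads in KL and 16 and 34 in KLG4m/m. KLG4m/m replicate 4 was the highest of the 4 libraries there and replicate 3 the lowest, and the estimate of 0.31 on the log2 scale (edgeR adjusted p = 0.614) became -0.38 without replicate 4. A peak of the predicted gene Gm57746, 1933 bp from the stronger peak, held 76, 73, 69 and 74 reads (log2 fold change 0.00).

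Pdpn encodes podoplanin, a mucin-type glycoprotein of the apical membrane. It had the lowest strongest peak of the 7 genes, and its window has the fewest CG steps. Its start-site peak, 547 bp into the gene, held 37 and 33 reads in KL and 32 and 37 in KLG4m/m, overlapping throughout, at 10.1 ± 0.805 and 10.4 ± 1.54 CPM (log2 fold change 0.04, 95% interval -0.47 to 0.54, edgeR adjusted p = 0.947). A peak 2195 bp into the gene (chromosome 4, 143023539 to 143023939) held 28 and 40 reads in KL and 15 and 17 in KLG4m/m. The groups did not overlap, and the mark was lower in KLG4m/m, at 4.81 ± 0.646 CPM against 9.79 ± 2.45 CPM (log2 fold change -1.02, SE 0.306, 95% interval -1.65 to -0.40, edgeR adjusted p = 0.0356). DESeq2 gave no adjusted p for this peak, the higher Clic5 peak or the intronic Emp2 peak. The 3 intronic peaks at 10.6, 21.4 and 27.4 kb from the start held 10 to 27 reads in a library, with log2 fold changes of 0.03, -0.57 and 0.17, none past the threshold. Over all 5 peaks the log2 fold change was -0.26 (SE 0.150, edgeR adjusted p = 0.247).

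Aqp5 encodes aquaporin 5, the water channel of the apical membrane of type 1 cells. Its only peak began 283 bp after the start (chromosome 15, 99489192 to 99489592), beyond the CG-rich window printed above. It held 80 and 69 reads in KL and 42 and 44 in KLG4m/m, and both KLG4m/m libraries lay well below both KL libraries. The mark was lower in KLG4m/m, at 12.9 ± 1.02 CPM against 21.4 ± 2.22 CPM (log2 fold change -0.73, SE 0.194, 95% interval -1.13 to -0.33, edgeR adjusted p = 0.0181). With DESeq2 the adjusted p was 0.396. The gene-level value was log2 -0.74 (edgeR adjusted p = 0.00558, DESeq2 adjusted p = 0.245).

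Cav1 encodes caveolin 1, the scaffold protein of caveolae. Its start-site peak held 101 and 111 reads in KL and 81 and 76 in KLG4m/m, at 30.5 ± 2.06 and 23.5 ± 0.0289 CPM. The groups did not overlap, but the difference in log2 terms, -0.38 with SE 0.155 and a 95% interval from -0.69 to -0.06, stayed short of the threshold (edgeR adjusted p = 0.130). The peak 8.45 kb into the gene held 34 and 35 reads in KL and 27 and 25 in KLG4m/m, or -0.35 on the log2 scale (edgeR adjusted p = 0.429). Summed, the 2 peaks gave -0.37 on the log2 scale (edgeR adjusted p = 0.0622), close to the threshold and not past it.

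Clic5 encodes a chloride intracellular channel protein that is tied to the actin skeleton beneath the membrane. It had 10 peaks over a long region of chromosome 17, of which 1 was called lower, 1 higher and 8 neither. The strongest, at the start of NM_172621.2 (44499640 to 44500040), held 169 and 147 reads in KL and 201 and 163 in KLG4m/m, at 45.5 ± 4.44 and 54.4 ± 5.53 CPM, where the scaled values of the groups lay close but did not overlap (log2 fold change 0.26, SE 0.122, edgeR adjusted p = 0.184). The next peak, 4.65 kb into the gene (44504106 to 44504506), held 61 and 59 reads in KL and 37 and 30 in KLG4m/m. It was lower in KLG4m/m, at 10.0 ± 1.02 CPM against 17.3 ± 0.392 CPM (log2 fold change -0.78, SE 0.214, 95% interval -1.22 to -0.34, edgeR adjusted p = 0.0217). With DESeq2 the adjusted p of this peak was 0.443.

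The 1 higher peak of the set lay 13.0 kb before the upstream Clic5 start, that of XM_006524135.5 (44432226 to 44432626) and held 15 and 13 reads in KL and 29 and 26 in KLG4m/m. It was at 8.23 ± 0.255 CPM in KLG4m/m and 4.03 ± 0.404 CPM in KL (log2 fold change 1.02, SE 0.319, 95% interval 0.37 to 1.68, edgeR adjusted p = 0.0439). This peak is inside an intron of Gm34917 and is assigned to Clic5 only as the nearest start, and with limma on log2(CPM + 1) its adjusted p was 0.0515. The other 7 Clic5 peaks held 7 to 58 reads in a library, with log2 fold changes from -0.82 to 0.23, none past the threshold. Of these, a pair at 112.6 and 161.9 kb from the start was intergenic. Over all 10 peaks the log2 fold change was -0.03 (SE 0.0812, 95% interval -0.19 to 0.13, edgeR adjusted p = 0.850).

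Akap5 encodes an A-kinase anchoring protein that holds kinases and phosphatases at the membrane. Its start-site peak held 135 and 144 reads in KL and 152 and 126 in KLG4m/m, and the groups overlapped (log2 fold change 0.05, 95% interval -0.22 to 0.32, edgeR adjusted p = 0.849). A peak 1444 bp into the gene (chromosome 12, 76373109 to 76373509) held 34 and 40 reads in KL and 19 and 17 in KLG4m/m. There the mark was lower in KLG4m/m, at 5.39 ± 0.174 CPM against 10.7 ± 1.23 CPM (log2 fold change -0.98, SE 0.281, 95% interval -1.55 to -0.40, edgeR adjusted p = 0.0292), while DESeq2 gave an adjusted p of 0.488. Set against its gene, this peak differed by -0.86 with an edgeR adjusted p of 0.137, so the 2 Akap5 peaks were not shown to differ in their change.

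Emp2 encodes a small membrane protein with several membrane-spanning segments. Its peak in intron 1, 13999 bp from the start (chromosome 16, 10117433 to 10117833), held 31 and 26 reads in KL and 13 and 11 in KLG4m/m. It had the largest decrease of the 24 peaks, with 3.59 ± 0.258 CPM in KLG4m/m and 8.20 ± 1.01 CPM in KL (log2 fold change -1.18, SE 0.331, 95% interval -1.86 to -0.50, edgeR adjusted p = 0.0251). The start-site peak held 91 and 111 reads in KL and 69 and 82 in KLG4m/m, not overlapping, and its log2 difference of -0.36 was short of the threshold (edgeR adjusted p = 0.181). Summed, Emp2 was lower, with a log2 fold change of -0.51 (SE 0.152, edgeR adjusted p = 0.0123, DESeq2 adjusted p = 0.304). With only the peak nearest the start the log2 fold change was -0.36 (edgeR adjusted p = 0.161).

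**Figure D2:**
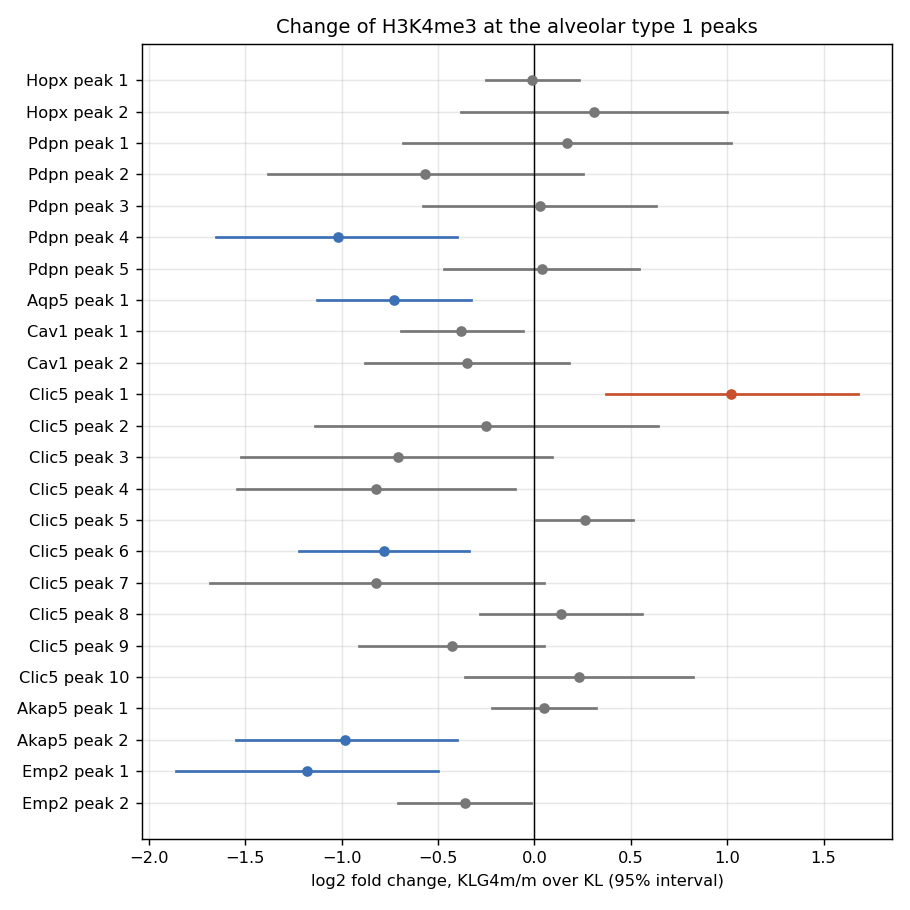
Log2 fold change of H3K4me3, KLG4m/m over KL, at each alveolar type 1 peak, with points for the edgeR estimate and lines for its 95% interval. Blue marks the 5 peaks called lower, red the 1 called higher and grey the other 18, whose estimates run from -0.82 to 0.31.

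**Figure D3:**
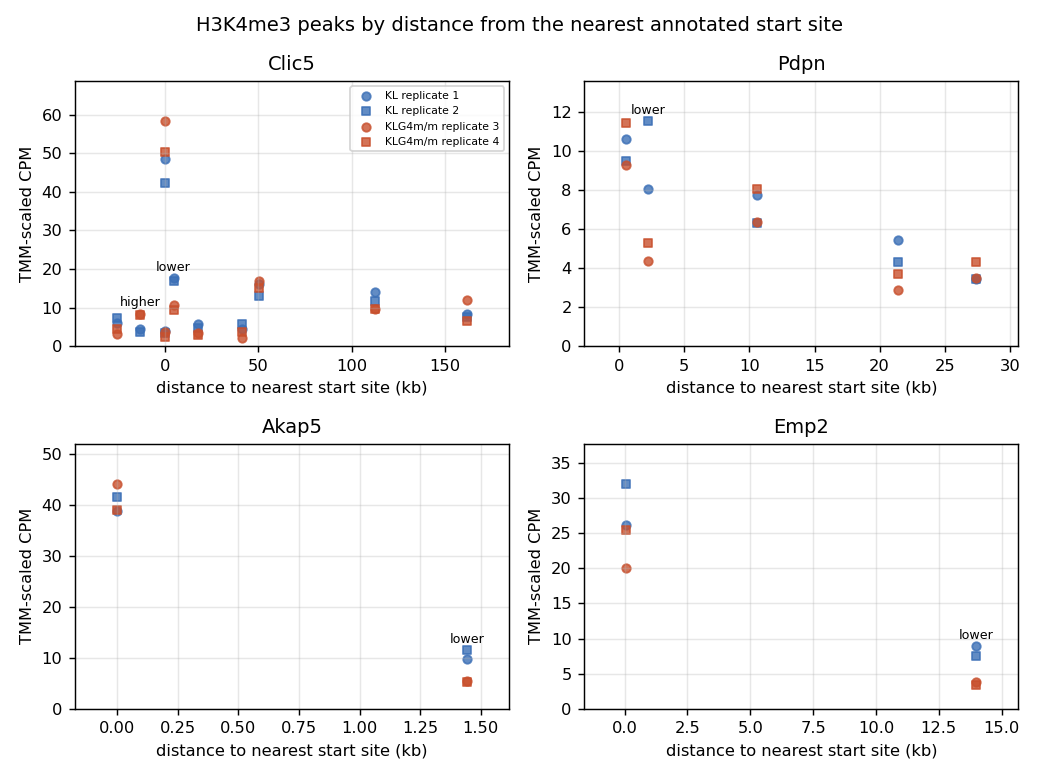
TMM-scaled CPM in each library (vertical axis) against distance in kb from the nearest annotated start site of the same gene (horizontal axis) for the 4 genes with a called peak and more than 1 peak. In all 4 genes the peak marked lower stands beyond 1 kb, while the start-site peaks of Akap5, Pdpn and Clic5 overlap or nearly meet between the groups.

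The order of the members by level was a description without a test. By their strongest peak the mean over the 4 libraries was 59.0 CPM for Hopx, 49.9 for Clic5, 40.9 for Akap5, 27.01 for Cav1, 25.9 for Emp2, 17.2 for Aqp5 and 10.2 for Pdpn. Neighbours in this order overlapped across libraries except Akap5 over Cav1 and Aqp5 over Pdpn. The strongest peaks of all genes had a median of 30.0 CPM, so Hopx stood at percentile 71.8 and Pdpn at percentile 27.2. Aqp5, with the most CG steps before its start, was among the weaker members.

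**Figure D4:**
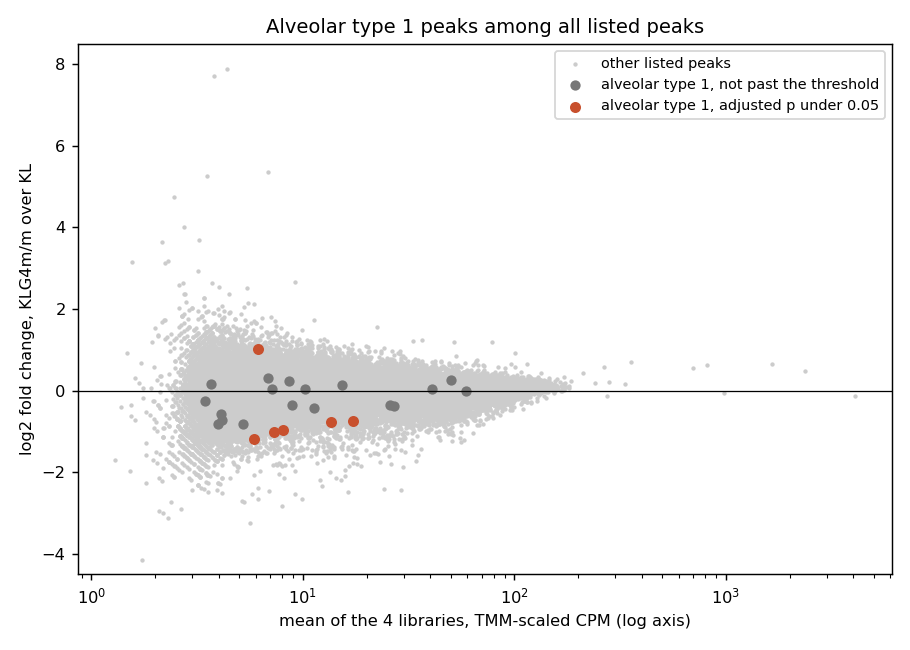
Log2 fold change, KLG4m/m over KL, against mean TMM-scaled CPM on a log axis for all 35486 listed peaks (light grey), with the 24 alveolar type 1 peaks in dark grey or, where the edgeR adjusted p is under 0.05, in red. The called members lie between 5.90 and 17.2 CPM, inside the range of the other peaks at those levels.

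Of 18 other genes known for type 1 cells 16 had a listed peak, and 2 were lower and none higher, near the 9.63% of all genes that were lower. Cldn18, a claudin of alveolar tight junctions, had 153 and 161 reads in KL and 78 and 103 in KLG4m/m (log2 fold change -0.74, edgeR adjusted p = 7.46e-05). Limch1, an actin-binding protein gene, had 247 and 245 reads in KL and 178 and 179 in KLG4m/m (log2 fold change -0.41, edgeR adjusted p = 0.00470). The type 1 markers Rtkn2, Spock2 and Igfbp2 had log2 fold changes of 0.02, 0.00 and -0.16, and did not pass. The median of the 16 was -0.17.

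Markers of other cell types moved beside the members, and their part in the results was not tested. Of 11 alveolar type 2 markers 9 had a listed peak, of which 7 were lower and none higher, with a median log2 fold change of -0.65. Here and for the lists that follow, the shares over all genes are 9.63% lower and 5.38% higher, and no list was tested. List calls, also those of the other type 1 genes, are from the main edgeR fit only. Over all genes that fit called 1122 higher and 2010 lower, where DESeq2 called 119 and 336. The largest decrease among them was that of Lamp3, a lamellar body protein gene, for which the KL libraries held 26 and 23 reads and the KLG4m/m libraries 4 each (log2 fold change -2.52, edgeR adjusted p = 3.36e-05), and Sftpb, a surfactant protein gene, was at -0.65. Sftpc, the defining type 2 gene, had no listed peak. The summed level of the type 2 list was 416 to 440 CPM in KL and 310 to 333 CPM in KLG4m/m, and that of the alveolar type 1 members 371 to 377 and 324 to 343 CPM. Neither pair of ranges overlapped, nor did that of the other alveolar type 1 genes, at 832 to 848 and 758 to 768 CPM. Such separation was common. Epithelial markers lay apart downward and macrophage and lymphocyte markers upward. Of all single genes, 28.7% lay lower without overlap and 27.9% higher.

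None of the 8 transitional alveolar cell markers passed the threshold in either direction. Their summed level was 338 to 350 CPM in KL and 331 to 340 CPM in KLG4m/m. Of the 7 epithelial markers 2 were lower and none higher, Epcam, the gene of the sorting marker, at -0.82 and Cdh1, E-cadherin, at -0.38 (edgeR adjusted p = 1.56e-06 and 0.00396). Endothelial markers, of interest for Cav1, gave 1 higher (Erg, 0.38) and 1 lower (Tek, -0.55) of 10, with 350 to 395 CPM in KL and 375 to 382 CPM in KLG4m/m. Lymphatic endothelial markers, of interest for Pdpn, gave none of 5, with 90.8 to 91.0 and 83.1 to 87.6 CPM.

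Some immune markers were higher. Of 9 macrophage markers 8 were listed, and 2 were higher (Spi1 at 0.38 and Adgre1 at 0.46) and none lower, with a summed level of 315 to 321 CPM in KL and 381 to 391 CPM in KLG4m/m. Of 8 lymphocyte markers 7 were listed, and 3 were higher (among them Ms4a1 at 0.65 and Cd3d at 0.45) and none lower, with 115 to 135 and 169 to 175 CPM. Fibroblast markers had 3 of 8 listed, 1 higher (Pdgfrb at 1.29), with 64.6 to 71.7 and 69.5 to 72.8 CPM, and mesothelial markers 2 of 5, 1 higher (Lrrn4 at 0.76), with 33.4 to 34.0 and 50.6 to 54.3 CPM.

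**Figure D5:**
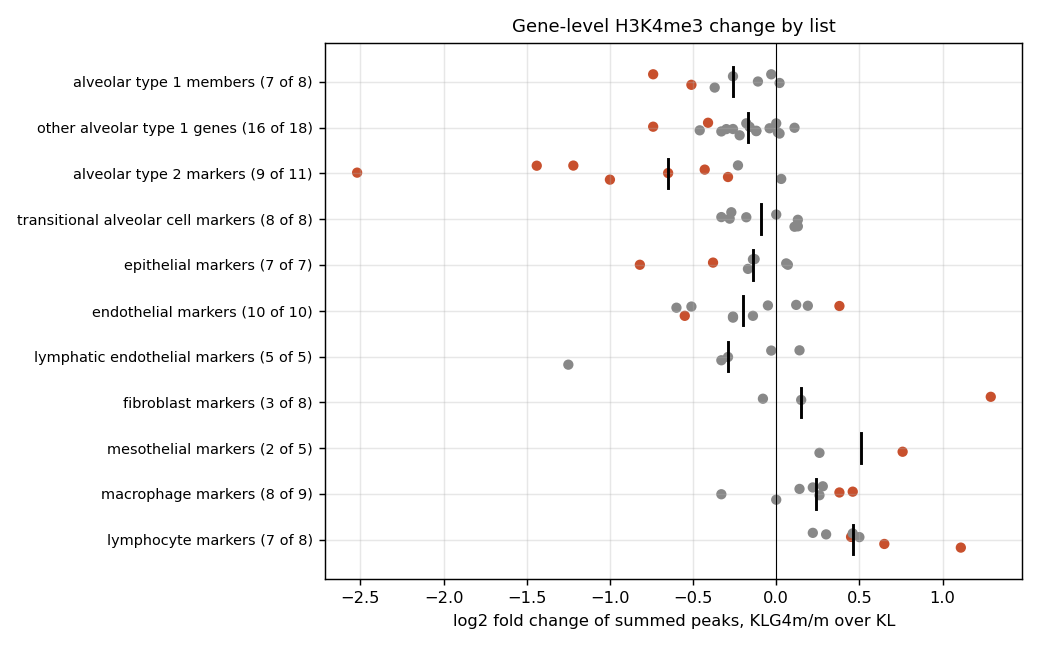
Log2 fold change of H3K4me3 summed over the peaks of each gene, KLG4m/m over KL, by list, where each point is a gene, red points passed the edgeR threshold and black bars are medians. Brackets give genes with a listed peak of all genes in the list. The alveolar type 1 members have a median of -0.26, in a range from -0.65 for type 2 markers to 0.51 for mesothelial markers. Lymphatic endothelial markers have -0.29, endothelial markers -0.20 and the other alveolar type 1 genes -0.17.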

How the data were processed

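H3K4me3 was measured by CUT&Tag in 4 libraries, and 4 libraries of H3K27ac were not used here. Per the study's methods, the authors trimmed reads with Trim Galore 0.6.10, aligned them with BWA 0.7.15 to a mouse genome named by its Ensembl release, and removed mitochondrial reads, those with mapping quality under 30 and duplicates (Picard 2.17.3). The methods name MACS2 2.2.7.1 for peaks and HOMER 4.11.1 for assigning them to genes, within the gene body or a short stretch upstream. The deposited assignment reaches farther, as with the Clic5 peak 13.0 kb before a start, so it does not follow that rule. How peaks were merged over libraries is not given in the sources used here, and the positions are not those of GRCm38. The deposited table holds whole-number read counts and CPM per library, the distance to the nearest start site, and the authors' own comparison (fold change, mean level, F, p-value and FDR), which was not used. The deposited CPM values were not tested, and levels were recomputed from the counts.

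Counts at all 35486 peaks, and their sums for 20871 genes, were tested with edgeR 4.0.16 (TMM, quasi-likelihood, R 4.3.3), two-sided, with no filter and no covariate. The SE is the size of the log2 fold change over the square root of F. Depth sets the precision: a member peak held 7 to 228 reads a library. The fit was tested on simulated counts with a common spread for all peaks, where changes were placed only at peaks of at least 10 CPM. That check does not cover weaker peaks, among them called members. Alternatives were DESeq2 1.42.0, limma 3.58.1, the edgeR exact test, other scalings, a minimum of 10 CPM and each library left out. Named genes are all members and all their peaks, genes past the threshold and defining markers of the other lists, Gpx4, and genes with a peak within 5 kb of a member peak or next to Ager. The members and lists were chosen with earlier results of these data known, and the test of peaks within genes was added after the peak values were seen. Promoter sequences are RefSeq windows of GRCm38.p6, matched for all 8 members by symbol, 6 of 10 windows also by start-to-end length.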

Additional observations from a re-analysis of the deposited data

How the results depend on the processing

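No paired analysis was possible because the KL libraries are numbered 1 and 2 and the KLG4m/m libraries 3 and 4, so the groups share no replicate number. The 6 member calls were all kept when libraries were scaled by total reads and with the edgeR exact test. Libraries centred on their median (limma) lost Pdpn peak 4, and limma on log2(CPM + 1) lost the higher Clic5 peak, leaving 0 higher. With DESeq2 no member peak was called, 0 higher and 0 lower, where 5 of the 6 kept an unadjusted p under 0.05 and 3 had an adjusted p at all. A minimum of 10 CPM left 10 member peaks in the test. Of the 6 calls only Aqp5 and Clic5 peak 6 were among them, and 2 were lower and 0 higher. Leaving out 1 library gave 0 to 2 lower and 0 higher peaks and 0 to 1 lower genes. Without KL replicate 1 Pdpn peak 4 and Akap5 peak 2 remained, without KL replicate 2 Aqp5 and Emp2 peak 1, and without either KLG4m/m library none, though 5 and 6 of the 6 kept an unadjusted p under 0.05. In those last fits no peak of the table was called, and the prior degrees of freedom fell from 24.5 to 2.63. Of the genes, DESeq2 called 0 lower, and using only the peak nearest the start or the peak with the most reads left 1 lower, Aqp5. Over the whole table, DESeq2 called 33 peaks higher and 244 lower (main 1099 and 1960) and 119 genes higher and 336 lower (main 1122 and 2010). Leaving out 1 library gave 0 to 702 higher and 0 to 1459 lower peaks, and 0 to 649 higher and 0 to 1305 lower genes. The peak nearest the start gave 733 higher genes and the peak with the most reads 725. Median centring gave 2839 higher and 1397 lower genes, 67.0% higher against 35.8%, with a log2 shift of 0.091 over all genes.

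Signs of some uncalled estimates turned as follows, with the cause not tested. In the main fit these estimates ran from -0.26 for the Pdpn sum to 0.31 at Hopx peak 2. Leaving out each library in turn, the log2 fold change ran from -0.22 to 0.16 at Hopx peak 1, -0.38 to 0.79 at Hopx peak 2, -0.14 to 0.19 at Pdpn peak 3, -0.12 to 0.18 at Pdpn peak 5, -0.59 to 0.013 at Clic5 peak 2, -0.0081 to 0.30 at Clic5 peak 8, -0.29 to 0.59 at Clic5 peak 10, -0.045 to 0.14 at Akap5 peak 1, -0.092 to 0.12 for the Hopx sum and -0.13 to 0.064 for the Clic5 sum. With the peak nearest the start and the peak with the most reads, the sums became -0.0098 and -0.018 for Hopx, 0.039 and 0.031 for Pdpn, 0.26 and 0.25 for Clic5, and 0.054 and 0.046 for Akap5. Median centring gave 0.058 for Clic5. At 7 to 61 reads a library beyond 1 kb, the SE of a member peak was 0.203 to 0.420, and estimates as large as -0.82 did not pass the threshold there.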
